A study of Mus musculus with 2 samples.

Results

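The comparison concerns liver endothelial cells (ECs) of mouse pups that carried iSuRe-Cre, a transgene that gives the membrane reporter MbTomato together with Cre once it has recombined, against liver ECs of control pups. Cells were assigned by their hashtag, an antibody-bound DNA tag added to each tissue suspension before pooling, and 858 iSuRe-Cre and 54 control cells met the criteria, 912 of the 1988 ECs assigned to any of the 6 hashtagged groups. The pups were of the C57BL/6 strain, with the genotype given for the whole library as Cdh5-CreERT2 + iHadSuRe-Cre. They received 1 dose of 40 mg/kg 4-hydroxytamoxifen on postnatal day 3, and tissue was taken 3 days later, at postnatal day 6 to 7. CreERT2 was driven by the promoter of Cdh5, the gene of the endothelial adhesion protein VE-cadherin, so induction was aimed at ECs. The iSuRe-Cre pups also carried floxed Notch1, which the paper gives and the labels do not, and the control is named only as control liver. A genotype for the control alone, and how many pups stood behind each hashtag, is not given in the sources used here. Livers were digested with collagenase and dispase, and cells sorted as CD31+ and MbTomato+ were run in 1 10x Genomics library with the other groups, which were iSuRe-HadCre liver and the 3 heart groups.

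Each group was 1 hashtagged sample. There was therefore no replicate check, no test and no p-value, and the 95% intervals given (exact Poisson for levels, exact binomial for shares of cells, exact conditional for ratios) cover counting error only. Levels are in CPM, the UMIs (unique molecular identifiers) of a gene relative to all UMIs of the group, as counts per 1e6. A gene counted as higher or lower when the ratio of CPM with 10 added to each side passed 2-fold, among genes with a mean of at least 25 CPM over both groups, and log2 ratios are on this scale with 10 added.

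Notch1 is a cell-surface receptor that is cut after binding Delta or Jagged ligands on a neighbouring cell, after which its intracellular part joins the DNA-binding protein RBPJ and switches on genes such as Hes1 and Hey1. In developing vessels the pathway is known for restraining tip cells and for arterial identity. Most ECs of the liver line sinusoids, fenestrated capillaries that take up waste through scavenger receptors such as Stab2, and ECs of the central vein release Wnt ligands and Rspo3 that pattern the neighbouring hepatocytes.

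A cell needed 2000 to 75000 gene UMIs, more than 500 genes, under 5% of mitochondrial and under 5% of haemoglobin UMIs, and a log-normalized Cdh5 value above 0.9. It also needed at least 25 UMIs of its own hashtag, with the hashtag HTO302 of iSuRe-Cre liver held to 140, and fewer than the minimum of every other assigned hashtag. These limits left 14350 quality barcodes, of which 7705 passed the Cdh5 limit. Of those, 5586 had no hashtag at its minimum, 1988 had exactly 1 and 131 had 2 or more and were left out, 11 of them with both liver hashtags compared here. No barcode was in both groups. The iSuRe-Cre cells held 9341120 UMIs, with a median of 8765 per cell and a range of 2013 to 73728. The 54 control cells held 624048 UMIs, with a median of 7980 and a range of 2252 to 55581, so per-cell depth was close and the control group was far smaller.

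The iSuRe-Cre liver hashtag, HTO302, was present at a low level almost everywhere. Its median was 28 UMIs over all quality barcodes and 22.5 in control liver cells, against 408.5 in the cells assigned to it. The control hashtag HTO303 had a median of 1 over quality barcodes and 93.5 in control liver. Cells just below the minimum of HTO302, with 100 to under 140 UMIs, numbered 327 and had 20.1 CPM of Notch1 and 272 CPM of Stab2. The 219 cells just above it, with 140 to under 200 UMIs, had 16.4 and 528 CPM. For the control hashtag the 24 cells with 15 to under 25 UMIs had 94.2 CPM of Notch1 and 111 of Stab2, and the 15 cells with 25 to under 50 UMIs had 113.7 and 34.1. The level of Stab2 thus depended on where the minimum of the hashtag was set, in opposite directions in the 2 groups.

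The groups differed most plainly in their makeup. At least 3 UMIs of Stab2 were found in 514 of 858 iSuRe-Cre cells (59.9%, 95% interval 56.5 to 63.2) and in 1 of 54 control cells (1.85%, 95% interval 0.0469 to 9.89). After each cell was thinned to 2000 UMIs the shares were 42.4% and 0.156%. The iSuRe-Cre share moved with the hashtag limit, to 31.6% with a minimum of 10 UMIs (70 for HTO302) and 78.9% with 50 (280 for HTO302). Cells with at least 5 UMIs of Rspo3 made up 17.9% of the iSuRe-Cre and 22.2% of the control cells, intervals that overlapped. Cells of 3 or more Stab2 UMIs, called Stab2-rich here, were left out for a further comparison of 344 iSuRe-Cre with 53 control cells, which shares its control cells with the comparison of all cells. The cut was not sharp. Of the iSuRe-Cre cells, 240 had no Stab2 UMI, 104 had 1 or 2, and 50 of the Stab2-rich cells had 3 to 5.

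Over all cells, 177 of 6552 genes were higher in iSuRe-Cre liver and 265 were lower, which is 2.7% and 4.04% of the genes measured. The comparison without the Stab2-rich cells gave 108 of 6570 genes higher (1.64%) and 186 lower (2.83%). The median log2 ratio of all genes was -0.09 over all cells and -0.11 without the Stab2-rich cells. Median-ratio size factors, which remove that shift, gave 224 higher and 214 lower genes over all cells, and 155 higher and 134 lower without the Stab2-rich cells, so the excess of lower genes went away under that scaling. All gene counts of a list given here are to be read against these shares.

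**Figure D1:**
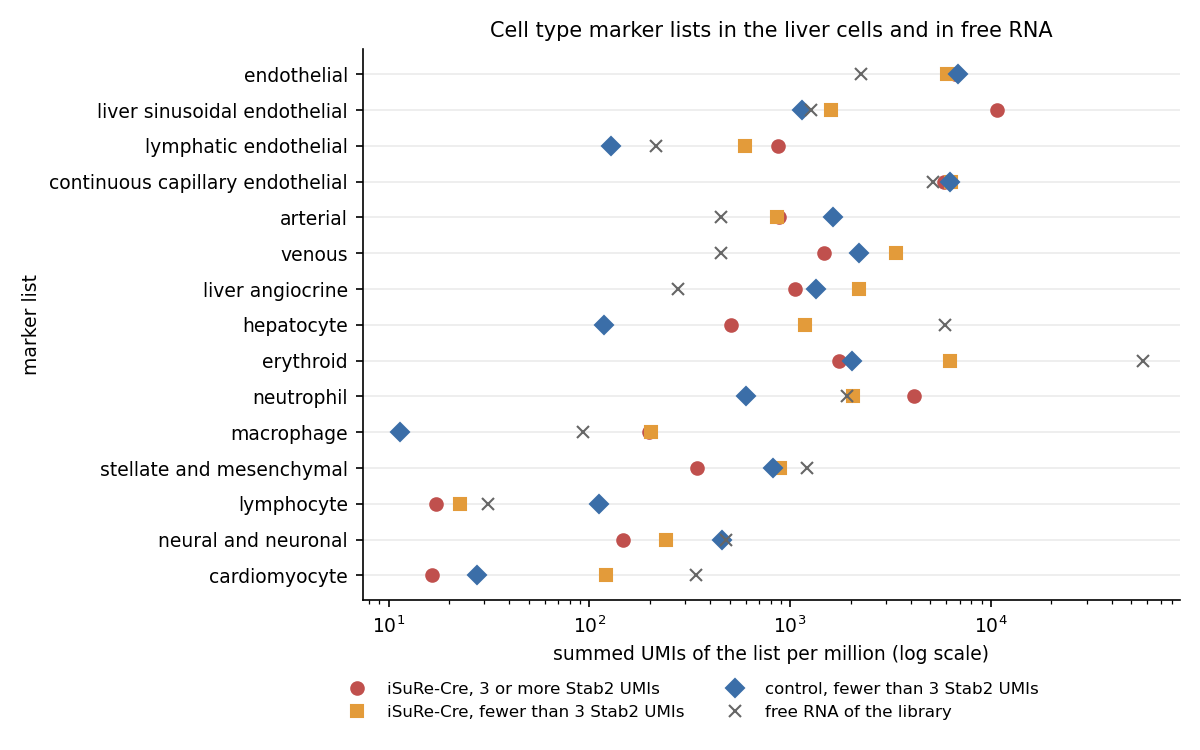
Summed level of 15 lists of cell type markers in CPM, on a logarithmic axis, in Stab2-rich iSuRe-Cre cells, the other iSuRe-Cre cells and control cells with fewer than 3 Stab2 UMIs, with crosses for free RNA (barcodes of 10 to 100 UMIs). Sinusoidal markers stand far higher in the Stab2-rich cells, the endothelial list is close in all 3 sets, and hepatocyte and erythroid markers are highest in free RNA.

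Both groups held endothelial transcripts. The 14 endothelial markers, Cdh5 among them, which the criteria used, summed to 6447 CPM in iSuRe-Cre and 6940 CPM in control liver, against 2258 CPM in free RNA, the RNA caught in barcodes of 10 to 100 UMIs. The sum is partly set by the choice of cells on Cdh5. None of the 14 was at 0 in either group, and the most abundant, the phosphatase gene Ptprb, was at 1203 and 1413 CPM. Only 1 of the 14 was past 2-fold over all cells, Kdr, and none without the Stab2-rich cells.

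Most markers of liver sinusoidal ECs were higher in iSuRe-Cre liver. Of 16 listed genes 15 were measured, 12 were higher and none lower, with a median log2 ratio of 2.35 against -0.09 for all genes. The scavenger receptor gene Stab2 (chr10:86841198-87008025, minus strand, GRCm38) was at 1446 CPM in iSuRe-Cre and 30.4 CPM in control liver. Mrc1, the mannose receptor, was at 646 and 24.0 CPM, and Fcgr2b, an inhibitory receptor for immune complexes, was at 262 and 6.41 CPM. Dnase1l3, which encodes a secreted DNase, was found in 533 of 858 iSuRe-Cre cells at 393 CPM and in none of the control cells. Against the limit that 0 UMIs allow in the control group (3 UMIs, or 4.81 CPM), it was at least 81.8-fold higher. Clec4g, a C-type lectin, was at 309 and 17.6 CPM, Maf, a transcription factor, at 1002 and 109 CPM, and F8, coagulation factor VIII, at 533 and 96.2 CPM. Gata4, a factor needed for sinusoidal identity, was an exception at 150.4 and 139.4 CPM, a ratio of 1.08 (95% interval 0.868 to 1.36). Gata4 was low in the heart groups, at 6.3 to 19.1 CPM, and 46 of its 87 control UMIs lay in the 12 cells with at least 5 UMIs of Rspo3. Cd209b was at 0 in both groups.

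Without the Stab2-rich cells most of this difference was gone, as the choice of cells largely fixes. The list summed to 1589 CPM in iSuRe-Cre and 1147 CPM in control cells, close to the 1276 CPM of free RNA. Of 12 measured members 2 were higher, Mrc1 at 77.6 and 21.1 CPM and Gpr182, an atypical chemokine receptor of sinusoids, at 96.5 and 42.2 CPM. The median log2 ratio was 0.50. Ehd3, an endocytic protein, was at 149.9 and 147.9 CPM and Stab1 at 121.7 and 151.1 CPM.

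The targeted gene was lower in iSuRe-Cre liver in every set of cells compared. Notch1 (ENSMUSG00000026923, chr2:26457903-26516663, minus strand, GRCm38) had 200 UMIs in 858 iSuRe-Cre cells, a level of 21.4 CPM (95% interval 18.6 to 24.6). The 54 control cells had 100 UMIs and 160.2 CPM (95% interval 130.4 to 194.9), so the ratio was 0.134 (95% interval 0.105 to 0.172). Without the Stab2-rich cells the levels were 24.3 and 160.9 CPM, a ratio of 0.151 (95% interval 0.111 to 0.205). The Stab2-rich iSuRe-Cre cells had 19.8 CPM, so within iSuRe-Cre liver the level lay close in the cell sets. Over the alternatives the ratio for all cells ranged from 0.0861, with cells thinned to 2000 UMIs, to 0.202, with no limit on Cdh5. Free RNA held 19.5 CPM of Notch1, a level like that of the iSuRe-Cre cells, and with free RNA subtracted the ratio was 0.126 over all cells and 0.151 without the Stab2-rich cells. Whether the counted part of the transcript lies within the floxed exons is not given in the sources used here. In heart ECs the same gene was at 12.7 CPM with iSuRe-Cre and 138 CPM in control.

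Notch1 was also lower within cell sets drawn by Rspo3. Among cells with at least 5 UMIs of Rspo3, the 154 iSuRe-Cre cells had 22.4 CPM from 48 UMIs and the 12 control cells had 177.7 CPM from 19 UMIs, a ratio of 0.126 (95% interval 0.0728 to 0.227). Of these, 113 of the 154 iSuRe-Cre and all 12 control cells were not Stab2-rich, so the sets differed in their share of Stab2-rich cells. Among the cells that were neither Stab2-rich nor held 5 Rspo3 UMIs, 231 iSuRe-Cre cells had 27.5 CPM and 41 control cells 157.3 CPM, a ratio of 0.175 (95% interval 0.121 to 0.251). The Rspo3 cells had 5.34% of genes higher and 6.01% lower, and the remaining cells 2.18% and 3.6%.

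**Figure D2:**
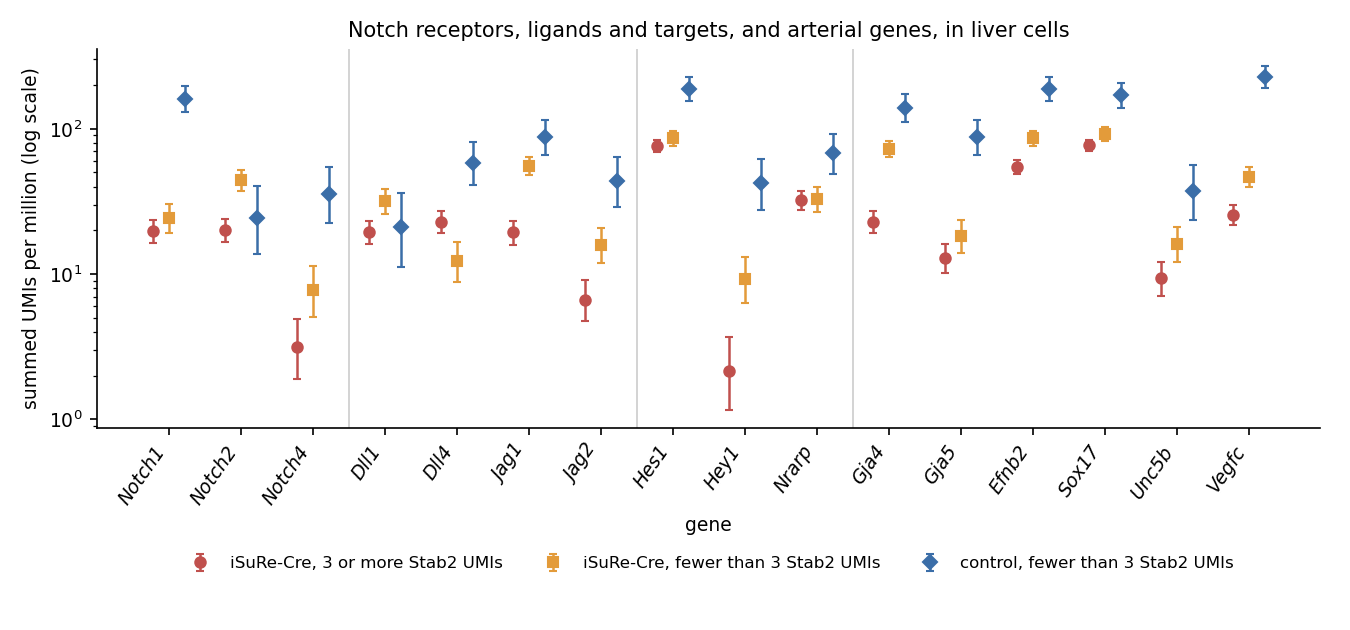
Levels of Notch receptors, ligands, targets and arterial genes in CPM on a logarithmic axis, with exact 95% Poisson intervals, in Stab2-rich iSuRe-Cre cells, the other iSuRe-Cre cells and control cells with fewer than 3 Stab2 UMIs. Notch1, Notch4, Hey1, Gja5 and Vegfc lie lower in both iSuRe-Cre sets than in control, with intervals that do not overlap.

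Counted by cells, a Notch1 UMI was found in 121 of 858 iSuRe-Cre cells (14.1%, 95% interval 11.8 to 16.6) and in 41 of 54 control cells (75.9%, 95% interval 62.4 to 86.5). At 2000 UMIs per cell the shares were 3.26% and 29.0%. Barcodes rich in hepatocyte RNA, which should lack the transcript, held it in 17 of 209 (8.13%, 95% interval 4.81 to 12.7) at a median of 6127 UMIs and in 1.09% after thinning. Before thinning the interval of the iSuRe-Cre share, at a median of 8765 UMIs, overlapped with that of this background. The thinned share of iSuRe-Cre cells, 3.26%, was above the 1.09% of these barcodes. Their Notch1 level was 5.30 CPM, against 21.4 CPM in iSuRe-Cre cells. No control cell held more than 7 UMIs of Notch1, so no single cell carried the control level, and the highest iSuRe-Cre cell held 12.

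**Figure D3:**
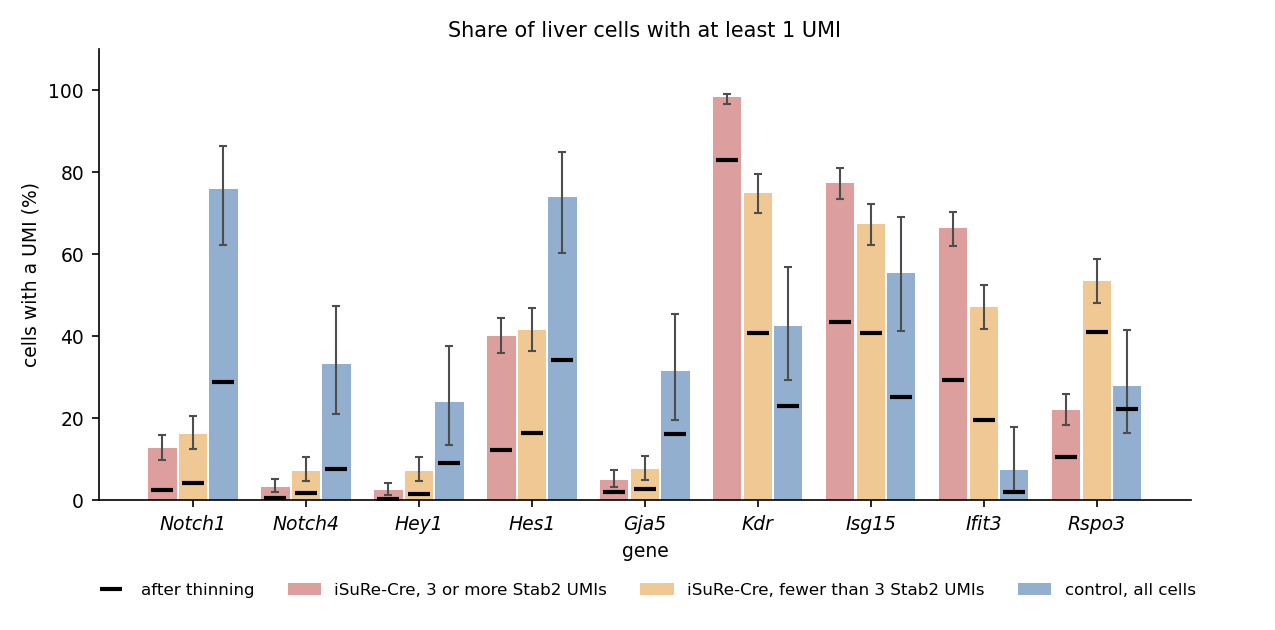
Share of cells with at least 1 UMI of 9 genes, in percent, with exact 95% binomial intervals, in Stab2-rich iSuRe-Cre cells, the other iSuRe-Cre cells and all control cells, with a black dash for the share after thinning to 2000 UMIs per cell. Notch1 was found in 12.6%, 16.3% and 75.9% of the cells, and Ifit3 in 66.3%, 47.1% and 7.41%.

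The other receptors did not follow a single direction. Notch4, the receptor most confined to endothelium, was at 4.82 CPM in iSuRe-Cre and 35.3 CPM in control liver, a ratio of 0.137 (95% interval 0.0804 to 0.239), from 45 and 22 UMIs. It was found in 4.90% and 33.3% of the cells. Its mean was below 25 CPM, so it was outside the count of genes. In the comparison without the Stab2-rich cells Notch4 was at 7.79 and 35.8 CPM. Notch2 was at 28.6 and 24.0 CPM over all cells and at 44.1 and 24.4 CPM without the Stab2-rich cells, a ratio of 1.81 (95% interval 1.06 to 3.31), with only 15 UMIs in control. Free RNA held 60.7 CPM of Notch2, above both groups, and its part in this difference was not tested. Notch3, a receptor of mural cells, had 4 UMIs in control and 5.14 CPM in iSuRe-Cre liver.

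Among the ligands 3 of 4 measured genes were lower over all cells and 1 was higher. Dll4, the endothelial Delta ligand, was at 19.1 and 62.5 CPM (log2 ratio -1.32), and at 12.3 and 58.5 CPM without the Stab2-rich cells. Jag2 was at 9.96 and 43.3 CPM. Jag1 was at 32.3 and 91.3 CPM over all cells but at 55.8 and 87.8 CPM without the Stab2-rich cells, a log2 ratio of -0.57 and no longer past 2-fold. Dlk1, a non-canonical ligand abundant in fetal hepatoblasts, was the higher one at 92.0 and 20.8 CPM. Free RNA held 294 CPM of Dlk1, above both groups, and the part of free RNA in this difference was not tested. Dll1 had 23.9 and 22.4 CPM, the latter from 14 UMIs, too few to compare.

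The machinery of the pathway did not pass 2-fold. Of 13 modifiers and effectors 11 were measured, with none higher and none lower in either comparison, and median log2 ratios of -0.21 and -0.25. Rbpj, the DNA-binding partner of the cleaved receptor, was at 72.5 and 105.8 CPM, and the co-activator Maml2 at 386 and 462 CPM.

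The target genes with enough UMIs were all below control. Hes1, a transcriptional repressor, was at 79.7 and 187.5 CPM, a ratio of 0.425 (95% interval 0.349 to 0.521). Without the Stab2-rich cells it was at 86.3 and 188.5 CPM, and among the cells that were neither Stab2-rich nor rich in Rspo3 at 117.6 and 206.5 CPM, where its log2 ratio of -0.76 was not past 2-fold. Hey1, a related repressor of arterial ECs, was at 4.71 and 41.7 CPM, and was found in 38 of 858 and 13 of 54 cells. Nrarp, a feedback inhibitor, was at 32.3 and 73.7 CPM, with a log2 ratio of -0.98 just short of 2-fold. Hes5, Hey2 and Heyl had at most 1 UMI in control liver and give no ratio of use.

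Several genes of arterial ECs were lower in the same cells. Of 12 listed genes 8 were measured over all cells, 5 were lower and none higher, with a median log2 ratio of -1.35, and without the Stab2-rich cells 5 of 10 were lower with a median of -0.95, or 4 when the control cell with most UMIs of each gene was left out. Gja5, the arterial gap junction protein connexin 40, was at 14.8 and 101.0 CPM over all cells and at 18.3 and 87.8 CPM without the Stab2-rich cells. It was found in 6.06% of iSuRe-Cre and 31.5% of control cells, and in 0.957% of the barcodes rich in hepatocyte RNA. Gja4, connexin 37, was at 40.6 and 141.0 CPM, then at 72.5 and 139.8 CPM, where it was not past 2-fold. Efnb2, the arterial ligand ephrin-B2, was at 65.7 and 187.5 CPM and at 86.0 and 188.5 CPM. Vegfc, a growth factor for lymphatic and coronary vessels, was at 33.2 and 240.4 CPM and at 46.8 and 227.5 CPM, with 38 of its 150 control UMIs in 1 cell. Sox17, an arterial transcription factor, was at 82.4 and 169.9 CPM, a log2 ratio of -0.96.

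How far these differences reached depended on the cells compared. In the cells that were neither Stab2-rich nor rich in Rspo3, 4 of 10 measured arterial genes were lower. They were Gja5 (32.4 and 104.2 CPM), Dll4, Vegfc and Hey1. Without the control cell with most of its UMIs Hey1 was not past 2-fold (log2 ratio -0.80). Efnb2 at 131.0 and 222.2 CPM and Gja4 at 120.3 and 159.3 CPM were not past 2-fold. Bmx, an arterial kinase, was there at 67.9 and 70.8 CPM, a ratio of 0.960 with an interval that spans 1 (95% interval 0.658 to 1.43). The 12 Rspo3 cells of control liver held too few UMIs for a comparison of most of these genes, with 5 each of Gja4 and Bmx, 3 of Efnb2, 1 of Gja5 and 0 of Dll4. Fewer arterial cells and less arterial RNA per cell cannot be told apart from these sums.

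Of 7 genes listed as endocardial 4 were measured over all cells, 2 were lower and none higher, and without the Stab2-rich cells 3 of 5 were lower, or 2 when the control cell with most UMIs of each gene was left out. Npr3, a clearance receptor for natriuretic peptides (chr15:11839896-11907287, minus strand, GRCm38), was at 12.6 and 173.1 CPM and was found in 53 of 858 iSuRe-Cre and 19 of 54 control cells. Adgrg6, an adhesion receptor, was at 40.8 and 278.8 CPM. Hapln1, a link protein of the matrix, was below the limit of 25 CPM, at 3.53 and 40.1 CPM with 21 of its 25 control UMIs in 1 cell. Nfatc1, the defining transcription factor of endocardium, was at 38.9 and 64.1 CPM and was not past 2-fold. Of 6 genes that respond to flow 3 were lower over all cells and 1 without the Stab2-rich cells, or 2 and 0 when the control cell with most UMIs of each gene was left out. Klf2 was at 458 and 689 CPM over all cells, and at 690.1 and 689.0 CPM without the Stab2-rich cells, while Klf4 was at 114.0 and 251.6 CPM and then at 179.3 and 248.6 CPM. For Klf2, 155 of 430 control UMIs came from 1 cell.

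Reporter transcripts were not higher in iSuRe-Cre liver. WPRE, a viral RNA element placed after the reporter, was at 105 CPM in iSuRe-Cre and 395.8 CPM in control liver, a ratio of 0.264 (95% interval 0.230 to 0.305), and free RNA held 160 CPM. Tomato was at 33.8 and 78.5 CPM. Cre, by contrast, had 249 UMIs in iSuRe-Cre and 6 in control cells, levels of 26.7 and 9.61 CPM and a ratio of 2.77 (95% interval 1.26 to 7.63). With 10 CPM added its log2 ratio was 0.90, not past 2-fold. Its mean was below 25 CPM, so it was outside the count of genes. UMIs of Cre from CreERT2 and from the iSuRe-Cre transgene cannot be told apart. To select Tomato+ ECs the paper removed cells by limits on Cdh5 (0.9) and on WPRE (0.5). Of these limits the criteria here used only that on Cdh5. Log-normalized WPRE was above 0.5 in 379 of 858 iSuRe-Cre and 40 of 54 control cells. Among iSuRe-Cre cells selected in this way, the ratio of WPRE to all 54 control cells was 0.608. With no such selection the ratio was 0.0913 in the Rspo3 cells, at 58.9 and 645 CPM, and 0.539 in the cells that were neither Stab2-rich nor rich in Rspo3. The Sv40-pA sequence, a polyadenylation signal that several transgenes can carry, was at 138.2 and 149.0 CPM. ERT2 was at 24.9 CPM in iSuRe-Cre and 16.0 CPM in control liver, the latter from 10 UMIs. FlpE was at 17.8 and 9.61 CPM, with 5 of its 6 control UMIs in 1 cell.

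The 12 highest genes over all cells included 4 of the listed sinusoidal genes, Dnase1l3, Stab2, Mrc1 and Fcgr2b. Gatm, an enzyme of creatine synthesis, was at 511 and 16.0 CPM and found in 591 of 858 iSuRe-Cre cells, and Slc9a9, a proton exchanger of endosomes, was at 273.7 and 9.61 CPM. Cxcl10, a chemokine that interferon induces, was at 304.9 CPM in 387 iSuRe-Cre cells and 9.61 CPM in 2 control cells. Ifi204, an interferon-inducible DNA sensor, had 1189 UMIs in 413 iSuRe-Cre cells and none in control, at least 26.5-fold higher against the limit of 3 UMIs. Camp, Ngp and Cstdc5 were of another kind, with most UMIs in few cells. Camp and Ngp encode granule proteins of neutrophils and were found in 65 and 49 of 858 cells, and Cstdc5, a stefin-like protease inhibitor, was found in 105. Ccl21a, the lymphatic chemokine, was found in 42 iSuRe-Cre cells and no control cell, at least 28.9-fold higher.

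Of the 12 lowest genes over all cells 8 had most of their control UMIs in a single cell. All 320 UMIs of Gzma, a protease of cytotoxic lymphocytes, lay in 1 control cell, as did 560 of 565 UMIs of the axon guidance receptor Dcc. In the same way 1 cell held 61 of 90 UMIs of Wnt4, 71 of 78 of Kcnip4, 35 of 53 of Fam155a, 44 of 57 of Ccdc141, 203 of 232 of Hspb1 and all 39 of Serpinb9b. Without that cell Wnt4 (-1.75), Fam155a (-1.62) and Ccdc141 (-1.19) were still lower past 2-fold, while Kcnip4 (-0.38) and Hspb1 (-0.07) were not and Gzma, Dcc and Serpinb9b were above 0. Npr3, Dach1, Scn7a and Gm26992 were spread over more cells and were past 2-fold without their top cell. Dach1, a transcription factor of coronary and arterial growth, was at 70.9 and 520.8 CPM in 166 and 24 cells, and 335.6 CPM in control without its top cell. Scn7a, a sodium channel, was at 64.1 and 447.1 CPM with 133 of 279 control UMIs in 1 cell. Gm26992, a gene model on the X chromosome that overlaps Tsix and Xist, was at 9.31 and 105.8 CPM and was found in 41 of 858 iSuRe-Cre and 28 of 54 control cells. Overlapping genes such as these can share reads, so its level is uncertain.

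**Figure D4:**
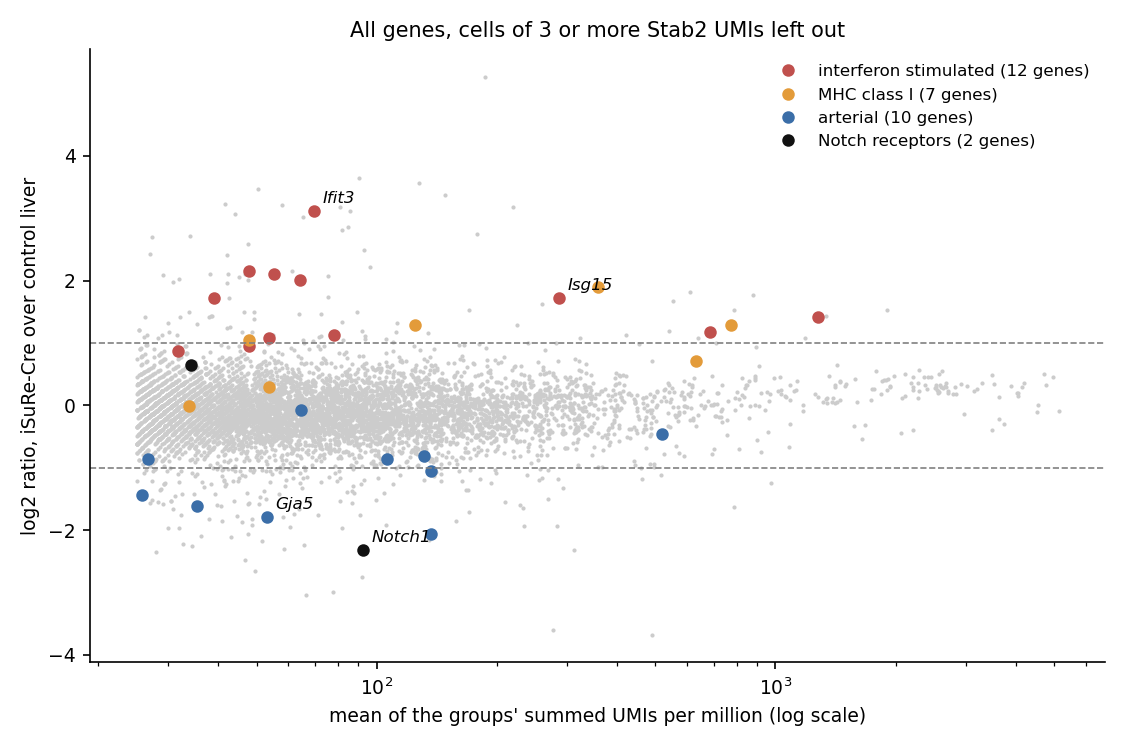
Log2 ratio of iSuRe-Cre over control liver (CPM with 10 added) against the mean CPM on a logarithmic axis, for the 6570 genes measured without the Stab2-rich cells, with dashed lines at 2-fold and coloured points for 4 lists. All 12 interferon-stimulated genes lie above 0 and all 10 arterial genes below 0, with Notch1 among the lowest genes at -2.32.

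Without the Stab2-rich cells, Notch1 itself was among the 12 lowest genes, at a log2 ratio of -2.32. It kept that value when the control cell with the most Notch1 UMIs was left out. Npr3 (-2.76), Dach1 (-2.32) and Gm26992 (-2.30) were there too, beside Dcc, Gzma, Kcnip4, Wnt4, Ccdc141, Fam155a, Serpinb9b and Kcnc2, a potassium channel gene with 29 of 33 control UMIs in 1 cell. The highest gene was Ccl21a at 373 CPM in 38 iSuRe-Cre cells and none of the control. Among the 12 highest were also the neutrophil genes Ngp, Camp, Lcn2 and Retnlg, and Cstdc5. So were the liver secretory genes Ttr (244 and 11.4 CPM), Afp (278 and 17.9 CPM) and Apoa1 (153.8 and 8.13 CPM). With free RNA subtracted Ttr, Afp and Apoa1 came to 0 CPM in both groups, which fixes their log2 ratio at 0. With cells rich in other types left out Afp was at 0.91 and Apoa1 at 0.47, neither past 2-fold, and none of the neutrophil genes was past 2-fold either, with Camp (0.12), Retnlg (0.14), Lcn2 (0.97) and Ngp (-0.28). The choice of cells left out largely fixes these losses. Cxcl9 (83.3 CPM in 42 cells, 0 in control) and Cxcl10 (161 CPM in 98 cells, 9.75 in control), both chemokines that interferon induces, and Ifit3 were also among the 12 highest.

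Genes that interferon stimulates were higher in iSuRe-Cre liver with and without the Stab2-rich cells. Of 14 listed genes 12 were measured, 10 were higher and none lower in each comparison, with median log2 ratios of 1.56 and 1.56. In the cells that were neither Stab2-rich nor rich in Rspo3, 9 of 11 were higher, and in the Rspo3 cells 10 of 12. Ifit3, an antiviral protein that binds other Ifit proteins, was at 165.9 and 8.01 CPM, a ratio of 20.7 (95% interval 8.86 to 63.9), and was found in 503 of 858 iSuRe-Cre and 4 of 54 control cells. After thinning the shares were 25.4% and 2.01%, and barcodes rich in hepatocyte RNA held it in 12.9%, or 5.37% after thinning, so the control share was at or below this background. Isg15, a ubiquitin-like modifier (chr4:156199424-156200818, minus strand, GRCm38), was at 392 and 136.2 CPM, a ratio of 2.88 (95% interval 2.32 to 3.61). When the Stab2-rich cells were left out it was at 446 and 128.4 CPM, a ratio of 3.47 (95% interval 2.77 to 4.41). In the 2 heart groups Isg15 was at 1280 and 152 CPM.

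A run of GAAA, any 2 bases and GAAA, the core of the element that interferon-activated factors bind, was looked for on both strands in the 250 bases before each start site. It was present before 7 of 12 interferon-stimulated genes with a RefSeq promoter, before 1 of 7 MHC class I genes and before 978 of 32851 promoters (2.98%). A listed gene counted if any of its promoters had a match, while the share of all promoters is per promoter, so the units differ. The stretches that hold the matches are shown for 4 of these 7 genes, 5′ to 3′ on the strand of the gene, from RefSeq GRCm38.p6, with 15 bases on each side. Capitals mark the matches, which read TTTC, 2 bases and TTTC where they lie on the opposite strand.
Isg15, chr4:156200860-156200911, minus strand: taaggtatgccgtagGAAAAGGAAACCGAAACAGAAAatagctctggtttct
Ifit1, chr19:34640770-34640828, plus strand: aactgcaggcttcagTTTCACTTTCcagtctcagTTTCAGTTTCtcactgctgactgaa
Ifit3, chr19:34583358-34583431, plus strand: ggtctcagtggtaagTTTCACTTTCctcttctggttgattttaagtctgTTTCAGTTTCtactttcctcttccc
Rsad2, chr12:26456548-26456587, minus strand: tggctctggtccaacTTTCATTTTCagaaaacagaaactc
Isg15 had 3 overlapping matches, Ifit1 and Ifit3 had 2 each and Rsad2 had 1. A match is a description of these letters and not a site at which binding was measured. The letters GTGGGAA, bound by RBPJ, were present before 2 of 3 Notch targets with a promoter, 1 of 10 arterial genes and 1779 of 32851 promoters (5.42%). Here too the lists were counted per gene and the whole set per promoter.

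**Figure D5:**
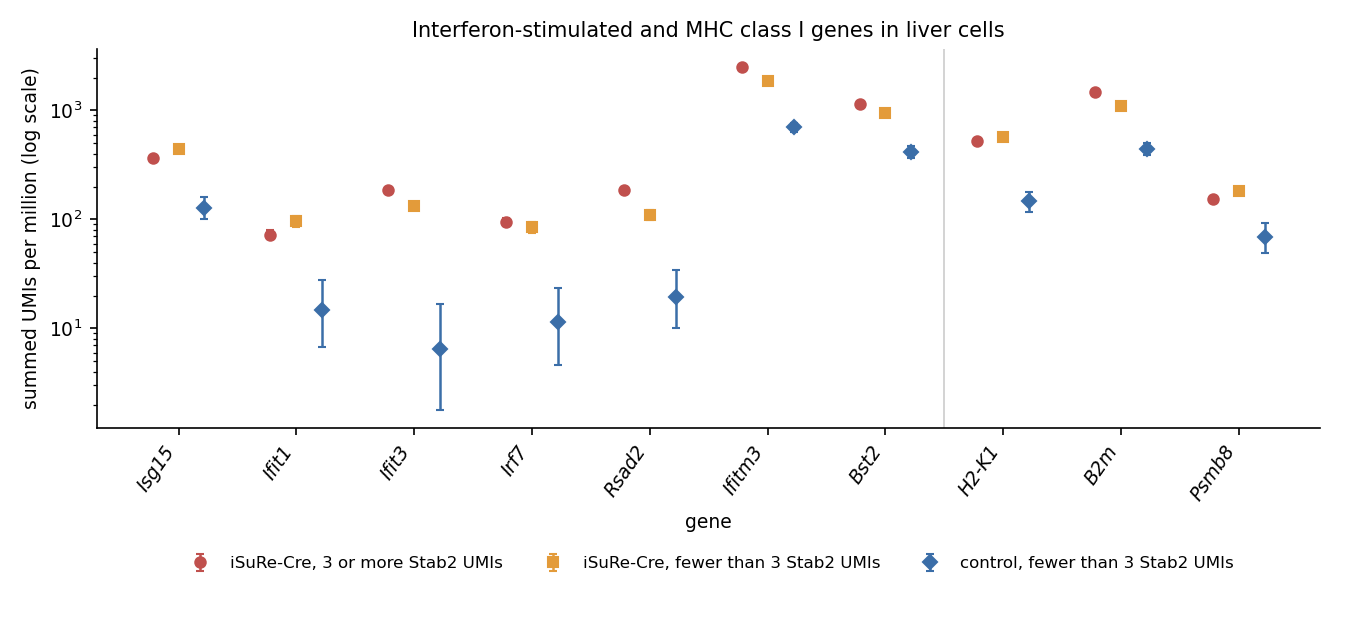
Levels of interferon-stimulated and MHC class I genes in CPM on a logarithmic axis, with exact 95% Poisson intervals, in Stab2-rich iSuRe-Cre cells, the other iSuRe-Cre cells and control cells with fewer than 3 Stab2 UMIs. Ifit3 and Irf7 stand apart from control in both iSuRe-Cre sets, and Ifitm3 is the most abundant gene in all 3.

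The remaining members ranged widely in level. Ifitm3, which blocks viral entry, was the most abundant at 2265 and 711 CPM, followed by Bst2, which tethers budding virus, at 1074 and 415 CPM. Irf7, the factor that amplifies interferon production, was at 90.9 and 12.8 CPM, Rsad2 at 158.5 and 19.2 CPM, Ifit1 at 80.6 and 14.4 CPM and Ifit2 at 115.0 and 12.8 CPM. Stat2, a signalling factor of the interferon receptor, was at 71.7 and 32.0 CPM, a log2 ratio of 0.96 that was not past 2-fold. Gbp2 was also not past it. The list summed to 4733 CPM in iSuRe-Cre, 1465 CPM in control and 1801 CPM in free RNA.

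Genes of MHC class I presentation were higher beside them. Of 9 listed genes 8 were measured over all cells and 5 were higher, and without the Stab2-rich cells 4 of 7 were, with median log2 ratios of 1.16 and 1.05. The heavy chain gene H2-K1 was at 543 and 144 CPM, a ratio of 3.76 (95% interval 3.06 to 4.69), and B2m, the light chain, at 1337 and 442 CPM. The heavy chain genes are close in sequence and could share reads, so their separate levels are uncertain. Psmb8 and Psmb9, subunits of the immunoproteasome, were at 163.0 and 68.9 CPM and at 74.8 and 27.2 CPM. H2-D1 was at 799.8 and 480.7 CPM and the peptide transporter subunit Tap2 at 31.9 and 33.7 CPM, neither past 2-fold.

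The receptors of VEGF differed in ways that depended on the cells compared. Kdr, the main VEGF receptor (chr5:75932827-75978458, minus strand, GRCm38), was at 771 and 231 CPM, a ratio of 3.34 (95% interval 2.83 to 3.97). It was at 1019 CPM in the Stab2-rich cells, and without them at 325 and 229 CPM, a ratio of 1.42 (95% interval 1.19 to 1.70). In the cells that were neither Stab2-rich nor rich in Rspo3 the ratio was 1.06 (95% interval 0.874 to 1.30), or 1.55 without the control cell that held 49 of the 131 UMIs. The ratio without the Stab2-rich cells was 2.02 when that cell was left out. In the Rspo3 cells Kdr was at 448 and 93.5 CPM, the latter from 10 UMIs. Flt4, the receptor for VEGF-C, was at 205.7 and 46.5 CPM over all cells and at 47.1 and 47.1 CPM without the Stab2-rich cells. Flt1, the decoy receptor, was at 665.6 and 535.2 CPM and then at 419 and 523 CPM, so its direction turned with the cells compared. In the cells that were neither Stab2-rich nor rich in Rspo3 it was at 279 and 541 CPM, a ratio of 0.516 (95% interval 0.445 to 0.600). Nrp1, a co-receptor, was at 565 and 596 CPM over all cells and at 276 and 505 CPM in those cells, a ratio of 0.546 (95% interval 0.469 to 0.637).

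Of 9 measured genes of the liver angiocrine list, which holds mostly signals of liver ECs to other cells, 2 were higher and none lower over all cells. Rspo3, which strengthens Wnt signalling around the central vein (chr10:29452416-29535867, minus strand, GRCm38), was at 670.9 and 749.9 CPM over all cells. Once the Stab2-rich cells were left out it was at 1616 and 760.5 CPM, a log2 ratio of 1.08. Over the alternatives that log2 ratio ranged from 0.25 to 1.54, so it was not past 2-fold under all of them. Without the Stab2-rich cells, those with at least 5 UMIs of Rspo3 made up 32.8% of iSuRe-Cre and 22.6% of control cells. Wnt2, a Wnt ligand of sinusoids and central vein, was at 164.5 and 96.2 CPM, and Wnt9b was at 22.6 and 46.5 CPM, with 13 of its 29 control UMIs in 1 cell. Its direction turned without the Stab2-rich cells, at 57.6 and 47.1 CPM (ratio 1.22, 95% interval 0.824 to 1.87). Bmp2, which regulates iron through hepcidin, was at 200.0 and 32.1 CPM over all cells and at 43.8 and 32.5 CPM without the Stab2-rich cells. Hgf, the hepatocyte growth factor, had 537 UMIs in iSuRe-Cre (57.5 CPM) and 1 in control cells (1.60 CPM), and free RNA held it at 21.7 CPM. It had 28 UMIs (8.39 CPM) in iSuRe-Cre without the Stab2-rich cells, too low to be measured. Of the venous genes, Vwf was at 190.8 and 416.6 CPM over all cells and at 380.4 and 407.9 CPM without the Stab2-rich cells, and Nr2f2, the venous nuclear receptor, at 609.7 and 383.0 CPM.

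Few genes of the lists that describe cell state were past 2-fold, and some of these lists lay above the median of all genes. Of 18 p53 targets 11 were measured, with none past 2-fold in either comparison and median log2 ratios of 0.06 and 0.01. Leaving out the control cell with most UMIs of each gene gave none past 2-fold either. Cdkn1a, the Cdk inhibitor p21, counted in the list of Cdk inhibitors, was at 228 and 176 CPM over all cells and at 186 and 179 CPM without the Stab2-rich cells, with 55 of its 110 control UMIs in 1 cell. Without that cell its log2 ratio was 1.16 over all cells, past 2-fold, and 0.85 without the Stab2-rich cells, and the latter was 1.56 with a hashtag minimum of 50 UMIs (280 for HTO302). In heart it was at 499 CPM with iSuRe-Cre and 161 CPM in control. No gene of S phase (10 measured) or of G2 and M phase (12 measured) was past 2-fold over all cells, with medians of 0.20 and -0.08. Without the Stab2-rich cells 1 of 13 G2 and M phase genes was higher, Ube2c, a ubiquitin-conjugating enzyme of mitosis, at 190 and 79.6 CPM. Fos, an immediate early gene that also responds to tissue digestion, was at 582 and 260 CPM in those cells, the only one of 12 measured members past 2-fold on the scale with 10 CPM added. The list lay higher as a whole there, with 11 of 12 members above 0 and a median log2 ratio of 0.66 against -0.11 for all genes, and 6 were past 2-fold when the control cell with most UMIs of each gene was left out. Junb was at 609.1 and 302.3 CPM and Zfp36, which destabilises mRNAs of inflammation, at 216 and 106 CPM, while Nr4a1 was at 43.2 and 56.9 CPM. Over all cells 8 of the 12 were above 0, with a median of 0.16. The part of tissue digestion in these or other differences was not tested. Of 11 measured glycolysis genes 10 were above 0 with a median of 0.40 and none past 2-fold, Gapdh standing at 889 and 604 CPM, and without the Stab2-rich cells 10 of 12 were above 0 with a median of 0.57. None of the 9 heat shock genes was past 2-fold, with 4 above 0 over all cells (median -0.01) and 9 above 0 without the Stab2-rich cells (median 0.39).

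Among genes of endothelial signalling and structure few were past 2-fold. Of 14 measured BMP and TGF-beta genes 1 was higher, Tgfb1 at 190 and 84.9 CPM, and 1 lower, Acvrl1, the endothelial receptor for BMP9, at 34.9 and 110.6 CPM. Tgfb1 was at 146 and 84.5 CPM without the Stab2-rich cells, not past 2-fold, and the higher member was Bmp4, a ligand, at 131 and 55.3 CPM. Of 15 measured junction and surface genes 1 was lower, Cav1, the coat protein of caveolae, at 164 and 569 CPM, and the median log2 ratio was -0.45, while without the Stab2-rich cells none was past 2-fold, with Cav1 at 305 and 577 CPM. Ets2 was the only one of 13 measured ETS and SOX factors past 2-fold, at 210 and 89.7 CPM, and was at 112 and 89.4 CPM without the Stab2-rich cells. Neither of the measured Tie and angiopoietin genes was. Of 7 measured tip cell genes 2 were lower, Pdgfb, which recruits mural cells, and Igfbp3, and without the Stab2-rich cells Igfbp3 alone was, with Pdgfb at 60.6 and 107 CPM. That call was lost (log2 ratio -0.77) without the control cell that held 12 of the 38 UMIs of Igfbp3. The most abundant marker of continuous capillaries, the fatty acid carrier Fabp4, was at 3488 and 3703 CPM, while 4 of 10 measured members of that list (Tcf15, Meox2, Rgcc and Car4) were lower over all cells and 1 without the Stab2-rich cells.

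RNA of other cell types differed between the groups. Hepatocyte markers, led by Afp, summed to 749 CPM in iSuRe-Cre and 120 CPM in control liver, and to 1180 CPM in the iSuRe-Cre cells that were not Stab2-rich, against 5912 CPM in free RNA. Erythroid markers, led by Hbb-bs, summed to 3354 and 2011 CPM. Klf1, Rhag and Hemgn were at 0 in control and at 3.10, 1.39 and 2.46 CPM in iSuRe-Cre. These levels are below the 4.81 CPM that 0 UMIs allow in control, so they cannot be compared. The erythroid list summed to 6242 and 2030 CPM without the Stab2-rich cells, and the 4 measured members, none past 2-fold over all cells, were all higher. Haemoglobin was limited by the criteria. Neutrophil markers, led by S100a8, summed to 3409 and 596 CPM, with all 5 measured members higher. Elane had 1 UMI in iSuRe-Cre and 0 in control, too few to compare. In all, 26 iSuRe-Cre and 2 control cells gave neutrophil markers more than 0.5% of their UMIs. With cells rich in other types left out, the log2 ratios of Camp and Ngp over all cells were 0.07 and -0.42, so these calls were lost. Leaving out cells rich in neutrophil markers largely fixes that loss. Macrophage markers, led by C1qb, summed to 201 and 11.2 CPM, with 9 of 10 at 0 in control. Stellate and mesenchymal markers summed to 539 and 811 CPM, and without the Stab2-rich cells to 892 and 822 CPM, with 165 of the 506 control UMIs in 1 cell. Their members went both ways. Without the Stab2-rich cells Dcn (log2 ratio 1.04) and Col1a1 (1.002) were past 2-fold higher, and Col3a1 was at -0.83. Over all cells Col3a1 was past 2-fold lower (-1.32), but not without its top control cell (-0.75). Cardiomyocyte markers summed to 53.8 and 27.2 CPM, and to 121 and 27.6 CPM without the Stab2-rich cells. Lymphocyte markers were at 19.3 and 111 CPM, most of the latter in 1 cell, and neural markers at 181 and 455 CPM. The neural markers went both ways, with Fabp7 higher (log2 ratio 2.55) and Stmn2 (-2.28) and Tubb3 (-2.20) lower. Without its top control cell Stmn2 was at -2.11 and Tubb3 at -0.34, the latter not past 2-fold. Megakaryocyte markers (41.5 and 19.2 CPM) and keratinocyte markers (60.8 and 49.7 CPM) were low in both. In all, 67 of 858 iSuRe-Cre and 5 of 54 control cells gave more than 0.5% of their UMIs to 1 of 9 such lists.

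Scaled by cardiomyocyte genes, which liver cells should lack, free RNA came to an estimated 15.9% of the UMIs of iSuRe-Cre and 8.06% of those of control cells, and to 35.8% and 8.17% without the Stab2-rich cells. The control estimate rests on 17 UMIs. Of the 503 UMIs behind the iSuRe-Cre estimate over all cells, 121 lay in 1 cell. Afp, at 278 and 17.9 CPM without the Stab2-rich cells against 1539 CPM in free RNA, lay below what these shares would bring. The sum of the hepatocyte markers did too. The shares are thus too high for hepatocyte RNA, and values with free RNA subtracted may be overcorrected. The part of free RNA in the difference of the erythroid list was not tested. With free RNA subtracted, Afp, Apoa1 and Ttr came to 0 CPM in both groups without the Stab2-rich cells. The amount subtracted was at least what was counted, so that 0 was fixed by the estimate. The part of free RNA in their difference was not tested. The same subtraction left Ifit3 at 179 and 3.69 CPM and Isg15 at 595 and 127 CPM. Leaving out the cells rich in other types left the ratio of Notch1 at 0.115 and gave 174 higher and 276 lower genes. Doublets were those cells with more than 1 hashtag, and no further caller was run.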

How the data were processed

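The authors ran Cell Ranger 7.1.0 on a GRCm38 reference extended by the transgenes. The deposited values are unfiltered UMI counts, not normalized, of 21951 genes and transgenes and 13 hashtag and multiplexing features in 2755147 barcodes. The submitters' processing notes also name Seurat. Here cells were chosen by the limits given with the groups, the UMIs of each gene were added up over the cells of a group and scaled to CPM by the sum over all genes, and 10 CPM was added before log2 ratios. The members, the gene lists and the tests were chosen with earlier results of these data known. Named genes were the 12 highest and 12 lowest of each comparison, with at least 30 UMIs, beside the genes of the lists and genes that mark the cell sets, and Ddx3y, Eif2s3y and Uty, which were chosen after their values were seen. No hashtag was repeated, so no count test was possible, and group totals were 9341120 and 624048 UMIs. Thinned shares are expectations over all draws of 2000 UMIs. Gene positions are from GENCODE M21 and promoters from RefSeq (GRCm38.p6). On simulated counts for the comparison of all cells, in which 200 genes were changed 4-fold, 99.0% of higher and 99.0% of lower genes passed 2-fold and 95.8% of intervals held the ratio. These group totals were drawn as Poisson counts, which the intervals assume, without the spread between cells that the data have. They therefore check the calculation only. Alternatives are given in the closing section. Python 3.11.15, numpy 2.4.6, scipy 1.17.1, pandas 2.3.3 and matplotlib 3.10.9 were used.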

Additional observations from a re-analysis of the deposited data

Results flagged for a closer look

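The barcode sequences A1 to A3, listed among the genes and put in no group by the labels, were read in both groups, with 869 UMIs (93.0 CPM) in iSuRe-Cre and 42 (67.3 CPM) in control liver. Their level was above that of the control, with a ratio of 1.38 (95% interval 1.01 to 1.93), and was 264 CPM over all quality barcodes.

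S100a8 and S100a9, subunits of calprotectin made by neutrophils, were higher with iSuRe-Cre in liver and lower with iSuRe-Cre in heart. The log2 ratio of S100a8 in liver was 2.42 over all cells and 1.81 without the Stab2-rich cells, against -1.86 in heart, where it was at 13.0 and 73.6 CPM. That of S100a9 was 2.03 and 1.19 in liver and -1.63 in heart, where it was at 14.7 and 66.7 CPM. The difference between the tissues was not tested, and each group is 1 sample. Of the 31847 UMIs of the neutrophil list in iSuRe-Cre liver, 7304 lay in 1 cell, and of the 372 in control liver 294 lay in 1 cell.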

How the results depend on the processing

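The ratio of Notch1 stayed below 1 under each of the alternatives run, between 0.0861 and 0.202 over all cells and between 0.0693 and 0.242 without the Stab2-rich cells. Leaving out other hashtags, cells of other types, cells with any Stab2 UMI, cells rich in Rspo3 or the control cell with most UMIs of a gene were alternatives chosen after seeing the data, as was a look at the Rspo3 cells alone. Of the 53 named genes past 2-fold over all cells, 47 kept their sign and 30 stayed past 2-fold throughout, and of 43 without the Stab2-rich cells 33 and 17 did. The cause of the shifts was not tested. With 1 library and 54 control cells, 1 UMI in control liver weighs 1.60 CPM, and low genes cannot be compared. No paired analysis was possible because each group was 1 hashtagged sample with no replicate number.

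With a hashtag minimum of 10 UMIs (70 for HTO302) the groups had 1776 and 115 cells, the ratio of Notch1 was 0.174, that of WPRE 0.342 and the share of Stab2-rich cells 31.6%, with 115 higher and 175 lower genes over all cells and 69 and 119 without the Stab2-rich cells. With a minimum of 50 (280) the share was 78.9% and the ratio of WPRE 0.225. With a hashtag 5 times every other the share was 68.1%. With no limit on Cdh5 the ratio of Notch1 was 0.202 and, without the Stab2-rich cells, 0.242, that of WPRE was 0.324 and the share 47.5%. The share was 65.4% with Cdh5 above 1.5 and 66.4% with haemoglobin under 1%. Requiring WPRE above 0.5 gave a share of 55.1% and a ratio of WPRE of 0.608 when asked of the iSuRe-Cre cells and 0.480 when asked of both groups. Without the 5% of cells with most UMIs the ratio of Notch1 was 0.101, and as a mean of per-cell CPM 0.0959, with 163 higher and 305 lower genes without the Stab2-rich cells. Subtracting free RNA gave a ratio of WPRE of 0.225, with 391 lower genes without the Stab2-rich cells. After thinning to 2000 UMIs the ratio of Notch1 was 0.0861, and 0.0693 without the Stab2-rich cells, that of WPRE was 0.219 and the share 42.4%, with 364 higher and 554 lower genes over all cells and 358 and 708 without the Stab2-rich cells. Adding 50 CPM gave 94 and 89 genes, and 54 and 51 without the Stab2-rich cells. A mean of at least 100 CPM gave 73 and 87, and 34 and 47. A mean of at least 10 CPM gave 399 lower genes over all cells and 174 higher ones without the Stab2-rich cells, and no filter gave 276 and 431, and 205 and 301. With hashtags HTO304 and HTO308 under 25 UMIs the ratio of WPRE was 0.223. In the Rspo3 cells 339 genes were higher and the ratio of WPRE was 0.0913.

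Log2 ratios near 0 also crossed it, among them those of Flt1 (-0.77 to 0.09), Klf2 (-0.24 to 0.51), Gata4 (-0.84 to 0.12) and Vwf (-0.85 to 0.31) without the Stab2-rich cells and of Rspo3 (-0.82 to 0.14) over all cells. Of genes past 2-fold, these changed sign. With the hashtag minimum of 50 that of Hspb1 was 0.10 and that of Serpinb9b 0.21 (0.72 without the Stab2-rich cells). With no limit on Cdh5 that of Ttr was -1.69 without the Stab2-rich cells. With Cdh5 above 1.5, Dcc had 1.51 over all cells and 1.10 without the Stab2-rich cells, Gzma 0.50 and 0.96, Serpinb9b 0.33 and 0.77, Wnt4 0.70 and 0.77, and Fam155a 0.31 in the latter. With WPRE above 0.5 in both groups Gzma had 1.06 and 1.88. Without the 5% of cells with most UMIs Dcc had 1.37 and 1.66, Serpinb9b 0.32 and 0.67, and Fam155a 0.14 and Kcnc2 0.037 without the Stab2-rich cells. With cells of other types left out Gzma had 0.99 and 1.85, and Ngp -0.42 and -0.28. With any Stab2 UMI left out Dcc had 1.90. Without the control cell with most UMIs of the gene Dcc had 2.11 and 1.95, Gzma 1.68 and 2.12, and Serpinb9b 0.28 and 0.62.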

Other observations

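The sex of the pups is not given in the labels. The Y-linked genes Ddx3y, Eif2s3y and Uty were at 76.9, 48.2 and 83.5 CPM in iSuRe-Cre and at 33.7, 19.2 and 40.1 CPM in control liver, ratios of 2.28 (95% interval 1.48 to 3.71), 2.51 (95% interval 1.42 to 4.88) and 2.08 (95% interval 1.40 to 3.24). Gm26992, which overlaps Xist, was at 9.31 and 105.8 CPM. Their part in other differences was not tested.

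Hashtag HTO308, which the labels give to no group, had at least 25 UMIs in 46 of 858 iSuRe-Cre cells (5.36%) and in 5 of 54 control cells (9.26%), and hashtag HTO304 in 13 and 2 cells. Of the 7705 barcodes that passed the Cdh5 limit, 5586 had no assigned hashtag at its minimum and were placed in no group.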
